A study of Mus musculus with 6 samples.

Results

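The genes described here are immediate targets of the interleukin 3 and STAT5 signal. They are the inhibitors Cish, Socs1, Socs2 and Socs3, which feed back on it, the kinases Pim1, Pim2 and Pim3, and the cytokine gene Osm. All 8 are called feedback genes here for short. They were chosen by symbol, and all 8 are among the 47606 genes listed for each library. Of these 8 genes, 7 reached a mean of 1 FPKM over the 6 libraries and were tested with 12929 genes in all, and Socs1 did not. FPKM are fragments corrected for transcript length and for sequencing depth, so levels can be set side by side between genes.

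RNA was sequenced from 32D cells, a mouse myeloid line that needs interleukin 3 to grow and was kept here at 1 ng/mL. All 6 libraries come from cells given lentivirus for dCas9-KRAB, a cutting-deficient Cas9 joined to a repressor domain, and then selected in puromycin for a week. The controls are dCas9-KRAB with the empty vector (EV, 2 libraries), and the knock-down groups carry dCas9-KRAB with guide sg2 (2 libraries) or guide sg5 (2 libraries), aimed at an enhancer of Cebpe. Each group has a replicate number 1 and a replicate number 2; nothing in the labels says that they are separate cultures, and so the p-values here speak only of the spread from library to library, which may be technical. The library titled sg5 replicate 2 is called sg2 in its other labels and is counted as sg5 here.

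When interleukin 3 binds its receptor, Janus kinase 2 phosphorylates STAT5, which enters the nucleus and switches on a small set of genes within minutes to hours. The CIS and SOCS proteins made from some of them bind the receptor or the kinase, block further signalling and, through their SOCS box, recruit a ubiquitin ligase. PIM proteins are serine and threonine kinases that favour survival and growth of cytokine-dependent blood cells, and oncostatin M, the product of Osm, is a secreted cytokine of the interleukin 6 family.

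STAT5 binds the palindrome TTCNNNGAA, and the 2 gene starts of the group that hold it are shown so that a reader can see where it falls. RefSeq promoter windows (GRCm38.p6, 250 bases before to 50 bases after a gene's start) were found for 6 of the 8 genes, all but Socs2 and Osm. The palindrome reads the same on both strands and matches no other motif searched here. Capitals mark each match, and both stretches run 5′ to 3′ along the gene's strand. The Cish stretch is chr9:107296654-107296683, plus strand, and begins 5 bases before the start. The Socs3 stretch is chr11:117969452-117969616, minus strand, and is the upstream part of its window.
Cish: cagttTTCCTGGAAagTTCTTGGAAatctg
Socs3: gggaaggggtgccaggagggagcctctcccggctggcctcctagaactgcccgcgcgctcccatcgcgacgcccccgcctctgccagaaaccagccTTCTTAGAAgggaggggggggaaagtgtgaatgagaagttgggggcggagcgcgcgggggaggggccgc
Cish held 2 matches, which begin at base 1 and base 12 counted from the RefSeq start, and Socs3 held 1 match, which begins 154 bases before its RefSeq start. Both RefSeq starts lie inside the GENCODE gene spans given below, which take in all transcripts of a gene. The windows of Socs1, Pim1, Pim2 and Pim3 hold none of these letters. A match was present in 9.55% of the 27025 genes with a window, and only 150 of 32851 windows (0.457%) held 2 or more, as that of Cish does. These matches describe the letters of the window and were not tested as binding sites.

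The libraries held between 31100000 and 45200000 fragments, as implied by the steps of their lowest values, so that 3 fragments on 1 kb of transcript are worth between 0.0664 and 0.0964 FPKM. Cebpe itself stood at 42.0 and 100.4 FPKM in EV, and the 4 guide libraries ranged from 14.4 to 22.7 FPKM. Of 10 markers of a myeloid progenitor, 8 had a mean of at least 1 FPKM, with a summed level between 792 and 1118 FPKM, whereas Kit was listed at 0 in all 6 libraries and Cd34 stayed at or below 0.33 FPKM. Of 9 mast cell and basophil markers, 7 had a mean of at least 1 FPKM. Their list had a higher sum, between 1554 and 3638 FPKM, most of it from Fcer1a (between 1081 and 2767 FPKM). The lymphoid markers summed to between 1.66 and 2.30 FPKM, with Cd3e listed at 0. The 6 libraries fell into 2 sets by replicate number and not by group, and the share of FPKM from genes under 200 nt was between 6.77% and 9.67% in number 1 and between 15.4% and 21.5% in number 2. The part of that share in the results by replicate number was not tested.

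All 8 genes had values above 0 in every library, and their levels spanned a wide range. Pim1 was the highest in every library, at or above the 93.0th percentile of protein-coding genes with a value above 0. Pim2 came next in the 3 number 1 libraries, between 58.5 and 69.2 FPKM, and in the number 2 libraries Pim2 and Cish had neighbouring levels, between 12.9 and 21.9 FPKM. Socs2 lay between 6.91 and 18.7 FPKM, with no fixed place in the order. In EV replicate 1 it was above Cish (18.7 against 17.7 FPKM). In sg5 replicate 2 it was below Socs3 and Osm (6.91 against 7.29 and 6.995 FPKM). Socs3 (between 3.98 and 8.15 FPKM) and Osm (between 3.78 and 7.81 FPKM) overlapped, so their order is within their spread. Pim3 lay between 2.19 and 3.44 FPKM, and Socs1 was the lowest in every library.

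**Figure D1:**
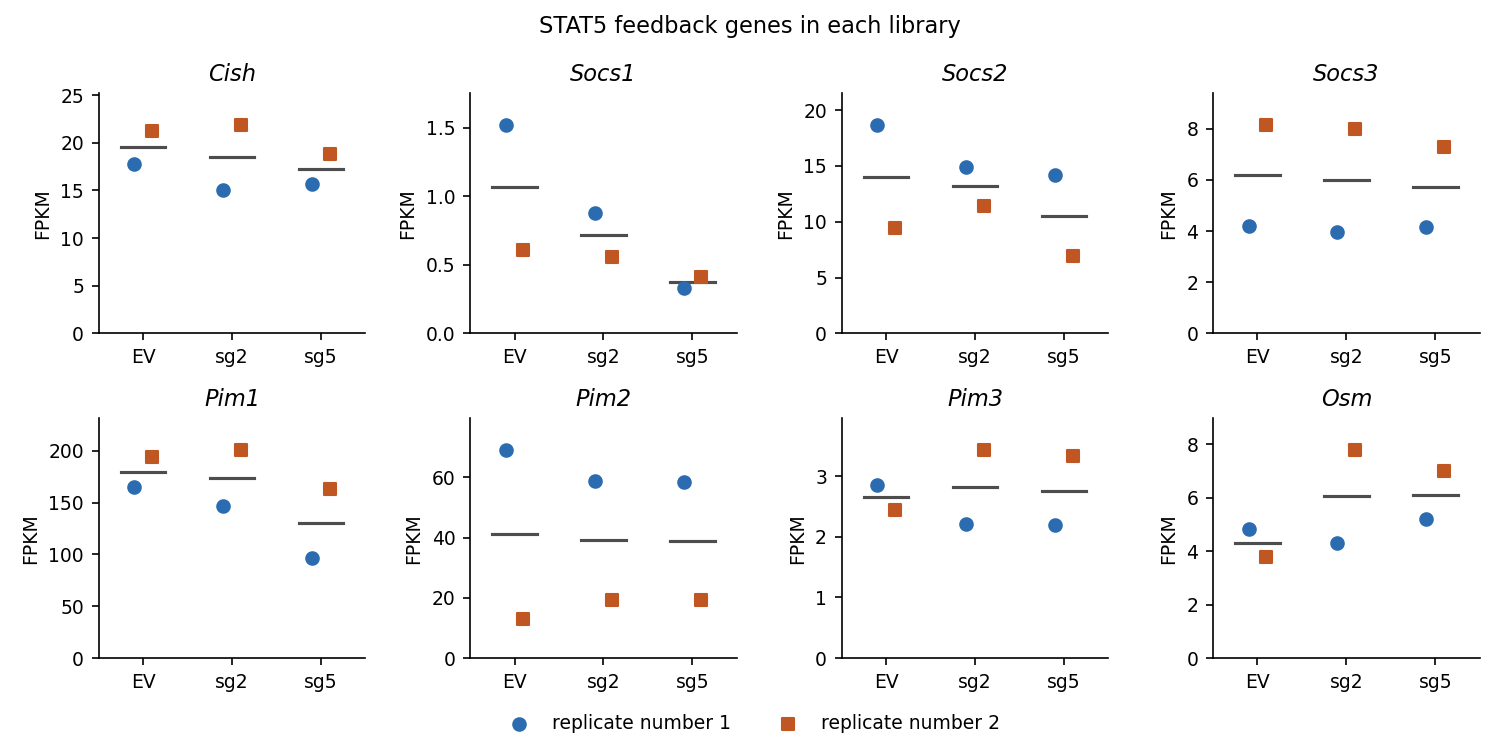
FPKM of the 8 STAT5 feedback genes in each library (linear axes from 0, each panel with its own range), with circles for replicate number 1, squares for replicate number 2 and a bar at the mean of the 2 libraries of a group. Pim2 measured between 58.5 and 69.2 FPKM in number 1 and between 12.9 and 19.5 FPKM in number 2, while Socs3 lay on the other side, between 3.98 and 4.203 FPKM and between 7.29 and 8.15 FPKM.

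The first comparison asks whether the 4 guide libraries differ from the 2 EV libraries, as the series' design text sets them against each other. None of the 7 tested genes passed an adjusted p of 0.05 in limma, and none had an unadjusted p under 0.05. In the same fit 0% of the 12929 genes passed the adjusted threshold (0 genes) and 169 (1.31%) had an unadjusted p under 0.05. With the replicate number as a block, limma called 5 genes (0.0387%) and found 739 (5.72%) with an unadjusted p under 0.05, and none of the 7 was among either. The guide range met the EV range for all 8 genes, where 5.1% of the genes tested had ranges that did not overlap. With sg5 alone the ranges stood apart for 3 of the 8 genes, Socs1 and Pim1 below EV and Osm above, which 15.4% of the genes tested did in either direction. All fold changes below are differences in log2(FPKM + 1), which understates changes of low genes.

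Among the inhibitors, Cish (ENSMUSG00000032578, GRCm38 chromosome 9, 107296026 to 107302784, plus strand) encodes CIS, which occupies the receptor sites that STAT5 needs. Cish stood at 17.7 and 21.3 FPKM in the EV pair (numbers 1 and 2, the order used throughout), at 15.1 and 21.9 FPKM in the sg2 pair and at 15.7 and 18.8 FPKM in the sg5 pair. The 3 groups overlapped, and in each of them the number 2 library was the higher. The EV mean was 19.5 ± 2.496 FPKM (SD, n = 2) and the guide mean 17.9 ± 3.13 FPKM (SD, n = 4), a log2 difference of -0.13 (SE 0.19, or 0.09 with the replicate block). Predicted antisense and pseudogene models, Gm17041 and Gm17040, overlap Cish on the opposite strand. Gm17041 reached 2.39 FPKM, and whether counting used the strand is not given in the sources used here.

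Socs2 (ENSMUSG00000020027, chromosome 10, 95385362 to 95417180, minus strand), best known as the brake on growth hormone signalling, stood at 18.7 and 9.40 FPKM in the EV pair. The sg2 pair held 14.95 and 11.4 FPKM and the sg5 pair 14.2 and 6.91 FPKM. Number 1 was the higher library in all 3 groups, and the groups overlapped. The log2 difference of guides from EV was -0.20 (SE 0.37, block 0.19).

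Socs3 (ENSMUSG00000053113, chromosome 11, 117966079 to 117970047, minus strand) encodes the inhibitor of Janus kinases at gp130 and at the G-CSF receptor. Its values were 4.203 and 8.15 FPKM in the EV pair, 3.98 and 8.002 FPKM in the sg2 pair and 4.17 and 7.29 FPKM in the sg5 pair. Same-numbered libraries of the 3 groups lay close together: the 3 number 1 values had a mean of 4.12 FPKM with an SD of 0.12 FPKM. The guide difference was the smallest of the inhibitors in size, a log2 difference of -0.06 (SE 0.36, block 0.09).

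Socs1 (ENSMUSG00000038037, chromosome 16, 10782240 to 10785536, minus strand), a direct inhibitor of Janus kinase activity, was under the threshold of 1 FPKM and was tested alone. Its values were 1.52 and 0.608 FPKM in the EV pair, 0.879 and 0.557 FPKM in the sg2 pair and 0.334 and 0.414 FPKM in the sg5 pair. Both sg5 libraries were below both EV and both sg2 libraries, whereas sg2 overlapped EV. Within a number all 4 guide libraries were below EV, by log2 differences of -0.42 and -0.047 for sg2 and -0.92 and -0.19 for sg5. The guides differed from EV by -0.39 on the log2 scale, with an exact two-sided permutation p of 0.2, where 15 splits, which do not use the pairing by number, allow no p below 0.067. The values rest on few fragments, from about 28.1 in sg5 replicate 1 to about 131 in EV replicate 1, if the longest transcript is taken as the length.

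Pim1 (ENSMUSG00000024014, chromosome 17, 29490753 to 29496112, plus strand), the classical STAT5 target among the survival kinases, stood at 164.9 and 193 FPKM in the EV pair. The sg2 pair held 146 and 201 FPKM and the sg5 pair 97.0 and 163 FPKM. Both sg5 libraries were below both EV libraries, 163 FPKM against 164.9 FPKM at the nearest, and sg2 overlapped EV. Taken within a replicate number, sg5 was at 58.8% and 84.5% of EV and sg2 at 88.7% and 104% of EV. Pim1 with sg5 differed from EV by -0.50 on the log2 scale (SE 0.33). The unadjusted limma p was 0.183 and adjusted to 1.00. In that comparison 0% of genes were called and 176 (1.36%) had an unadjusted p under 0.05. With the replicate block the SE was 0.14 and the unadjusted limma p was 0.0175, which adjusted to 0.588; the block called 2 genes (0.0155%) for sg5 and gave 1039 (8.04%) an unadjusted p under 0.05. With sg5 replicate 2 counted as sg2, as its other labels say, the log2 difference of the remaining sg5 library from EV was -0.87 (SE 0.27) and the limma adjusted p was 1.00, a fit that assumes this lone library to vary as the other groups do. That library is a number 1 library, and against the number 1 EV library alone the difference was -0.76.

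Against sg2, sg5 differed in Pim1 by -0.44 (SE 0.33, limma adjusted p = 1.00), and sg2 differed from EV by -0.06 (SE 0.33, limma adjusted p = 1.00). The replicate block gave the first of these an unadjusted limma p of 0.0269, which adjusted to 0.854. For sg5 against sg2 limma called no gene, and 111 genes (0.859%) had an unadjusted p under 0.05. For sg2 against EV limma called 1 gene (0.00773%), which was none of the 8. The antisense model Gm26885 overlaps Pim1 and reached 1.23 FPKM.

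Pim2 (ENSMUSG00000031155, chromosome X, 7878262 to 7883432, plus strand) encodes a short-lived kinase set largely by its own transcription. Its values were 69.2 and 12.9 FPKM in the EV pair, 58.9 and 19.3 FPKM in the sg2 pair and 58.5 and 19.5 FPKM in the sg5 pair. The spread within each group exceeded every difference between groups. The log2 difference of guides from EV was 0.16, with an SE of 0.80 that fell to 0.18 with the replicate block.

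Pim3 (ENSMUSG00000035828, chromosome 15, 88862186 to 88865726, plus strand), the third kinase of the family, stood at 2.85 and 2.44 FPKM in the EV pair, at 2.21 and 3.44 FPKM in the sg2 pair and at 2.19 and 3.33 FPKM in the sg5 pair. The guide values lay on both sides of EV, low in number 1 and high in number 2. The log2 difference was 0.04 (SE 0.23, block 0.18).

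Osm (ENSMUSG00000058755, chromosome 11, 4236420 to 4241026, plus strand) had the largest guide difference of the 7 tested genes in size. Its values were 4.83 and 3.78 FPKM in the EV pair, 4.31 and 7.81 FPKM in the sg2 pair and 5.19 and 6.995 FPKM in the sg5 pair. Both sg5 libraries were above both EV libraries, and sg2 replicate 1 lay between the EV libraries. The EV mean was 4.30 ± 0.743 FPKM (SD, n = 2) and the guide mean 6.08 ± 1.61 FPKM (SD, n = 4), a log2 difference of 0.39 (SE 0.25, block 0.21).

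Over the 7 tested genes the limma adjusted p for guides against EV was 1.00 for each, and between 0.818 and 0.986 with the replicate block. The median of their log2 differences was -0.06, with 3 above 0, beside a median of -0.00 and 48.7% above 0 for all genes tested. Summed markers of some other cell types stood apart between guides and EV. Of 11 late neutrophil markers 6 had a mean of at least 1 FPKM, and the EV libraries summed to 454 and 690 FPKM and the guide libraries to between 141 and 196 FPKM. Of these 6, 5 had a difference below 0 and 1 above, with 0 called by limma (smallest adjusted p = 0.0811), 4 with an unadjusted p under 0.05, and 2 called with the block. Of the 5 eosinophil markers 2 were tested and neither was called. All 5 summed to 81.8 and 262 FPKM in EV and from 12.2 to 67.6 FPKM with guides. Most of that sum was Epx, at 75.5 and 253 FPKM in EV and from 8.77 to 61.6 FPKM with guides. Siglecf, the other one tested, overlapped (4.55 and 8.41 FPKM in EV, from 3.31 to 5.90 FPKM with guides). Of 7 tested mast cell and basophil markers 6 had a difference above 0 (median 0.53), and their sums overlapped. None was called with or without the block, and the unadjusted limma p was under 0.05 for none, or for 1 with the block. With sg5 all 7 were above 0, and 5 had such a p with the block, beside 8.04% of all genes. With sg2 5 were above 0, and 1 had such a p with the block. Their part in the values of the 8 genes was not tested, and in these bulk libraries fewer cells of a type and less RNA per cell cannot be told apart.

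**Figure D2:**
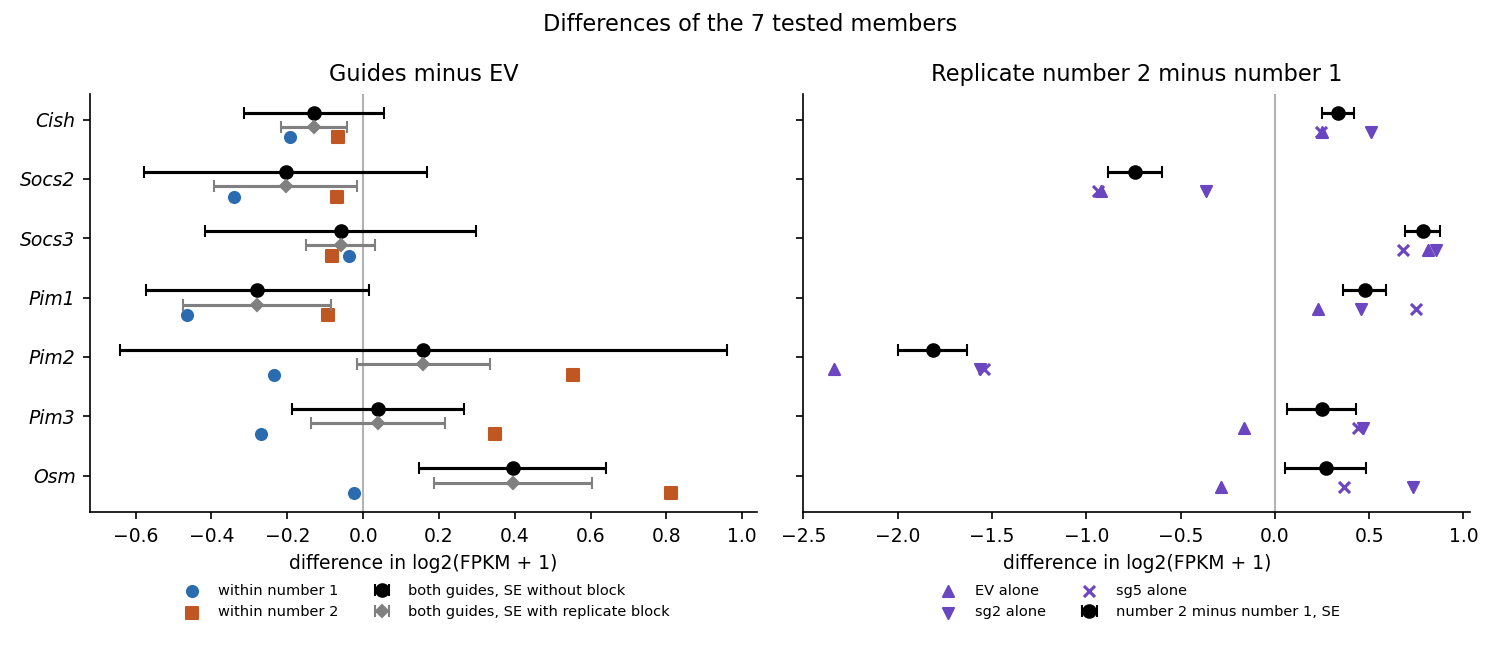
Differences in log2(FPKM + 1) for the 7 tested genes, guides minus EV on the left and replicate number 2 minus number 1 on the right, with black circles and bars for the fitted difference and its SE, grey diamonds for the SE with the replicate block, and small marks for the values within a number or a group. On the left Pim2, Pim3 and Osm have within-number values on both sides of 0, and on the right Socs2 and Pim2 lie below 0 in every group while Cish, Socs3 and Pim1 lie above.

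The second comparison sets the 3 number 2 libraries against the 3 number 1 libraries, with the group as a term. Limma called 5 of the 7 genes at an adjusted p of 0.05, where it called 47.1% of all genes tested (6089), 20.2% of them higher and 26.9% lower in number 2. Cish, Socs3 and Pim1 were higher in number 2, and Socs2 and Pim2 were lower. Of the 7, 4 had number 2 libraries entirely on one side of number 1, as 61.1% of all genes tested did. Rescaling by the sum over protein-coding genes raised the median difference of all genes by 0.17 on the log2 scale and turned the calls from 43.0% to 64.4% higher (4004 higher and 2211 lower, against 2617 and 3472). The 5 genes kept their direction and their call under that scaling and under a median-ratio scaling.

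Pim2 had the largest difference by number, with 62.2 ± 6.10 FPKM in number 1 and 17.2 ± 3.75 FPKM in number 2 (SD, n = 3 each). The log2 difference was -1.81 (SE 0.18, limma adjusted p = 0.00334), and 98.4% of genes tested had a smaller one in size. The 3 libraries of one number did not overlap with those of the other, as for 34.1% of genes in that direction. By group, number 1 was 5.38 times number 2 in EV, 3.05 times with sg2 and 3.01 times with sg5. Leaving out any 1 library left the log2 difference between -1.95 and -1.55 and the limma adjusted p at or below 0.0313.

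Socs3 stood apart in the other direction, with 4.12 ± 0.12 FPKM in number 1 and 7.81 ± 0.46 FPKM in number 2 (SD, n = 3 each). Its log2 difference was 0.78 (SE 0.09, limma adjusted p = 0.00435), higher in 3 of 3 groups and without overlap, as for 27% of genes in that direction. It kept its call with any 1 library left out, at adjusted p values up to 0.0404.

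Socs2 was lower in number 2 in all 3 groups, at 15.9 ± 2.41 FPKM in number 1 and 9.24 ± 2.25 FPKM in number 2 (SD, n = 3 each), without overlap. The log2 difference was -0.74 (SE 0.14, limma adjusted p = 0.0147). The call was lost without EV replicate 1 or 2 and without sg5 replicate 1 or 2, with adjusted p values up to 0.0902, and without a filter on low values (limma adjusted p = 0.0531).

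Cish was higher in number 2 in all 3 groups and did not overlap, with 16.2 ± 1.39 FPKM and 20.7 ± 1.63 FPKM (SD, n = 3 each). The log2 difference was 0.33 (SE 0.08, limma adjusted p = 0.0314), near the middle of all genes, since 48.5% had a smaller one in size. The call was lost with any 1 library left out, at limma adjusted p values from 0.0749 to 0.119, and without a filter on low values (limma adjusted p = 0.0743).

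Pim1 had 136 ± 35.1 FPKM in number 1 and 186 ± 19.9 FPKM in number 2 (SD, n = 3 each), and here the numbers overlapped, because EV replicate 1 (164.9 FPKM) was above sg5 replicate 2 (163 FPKM). With the group as a term the log2 difference was 0.48 (SE 0.11, limma adjusted p = 0.0263), higher in number 2 in 3 of 3 groups. The call was lost with any 1 of the sg2 or sg5 libraries left out, at adjusted p values up to 0.114, without the group term (limma adjusted p = 0.0895) and without a filter on low values (0.0747).

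Pim3 and Osm did not pass the test by number. Pim3 had a log2 difference of 0.25 (SE 0.18, limma adjusted p = 0.310) and Osm of 0.27 (SE 0.21, limma adjusted p = 0.344), and both were higher in number 2 with sg2 and with sg5 and lower in EV. Socs1 differed by -0.28, with an exact two-sided permutation p of 0.4.

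The family sums overlapped between the numbers, while the shares of Pim1 and Pim2 did not. The 3 Pim genes summed to between 158 and 237 FPKM in number 1 and between 186 and 224 FPKM in number 2, ranges that overlap. Pim2 made up between 28.4% and 37.1% of that sum in number 1 and between 6.17% and 10.4% in number 2. Pim1 made up between 61.5% and 70.6% and between 87.8% and 92.7%. The Pim3 share overlapped, at between 1.07% and 1.39% and between 1.17% and 1.79%. With Pim3 this small, the shares of Pim1 and Pim2 mirror each other and are not separate results, and the Pim1 level itself overlapped between the numbers. The Pim1 level was between 1.66 and 2.49 times that of Pim2 in number 1 and between 8.40 and 15.02 times in number 2.

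The inhibitor genes also had overlapping sums and separate ratios. Cish and the 3 Socs genes summed to between 34.4 and 42.2 FPKM in number 1 and between 33.4 and 41.9 FPKM in number 2. The Socs2 level was between 3.40 and 4.45 times that of Socs3 in number 1 and between 0.948 and 1.43 times in number 2. Socs2 stood close to Cish in number 1, where the Cish level was between 0.9496 and 1.11 times that of Socs2, and well below it in number 2, where the ratio was between 1.92 and 2.72. Both ratios pair Socs2, called lower in number 2, with a gene called higher. The shares and ratios of both families are descriptions of the levels above and carry no test of their own.

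**Figure D3:**
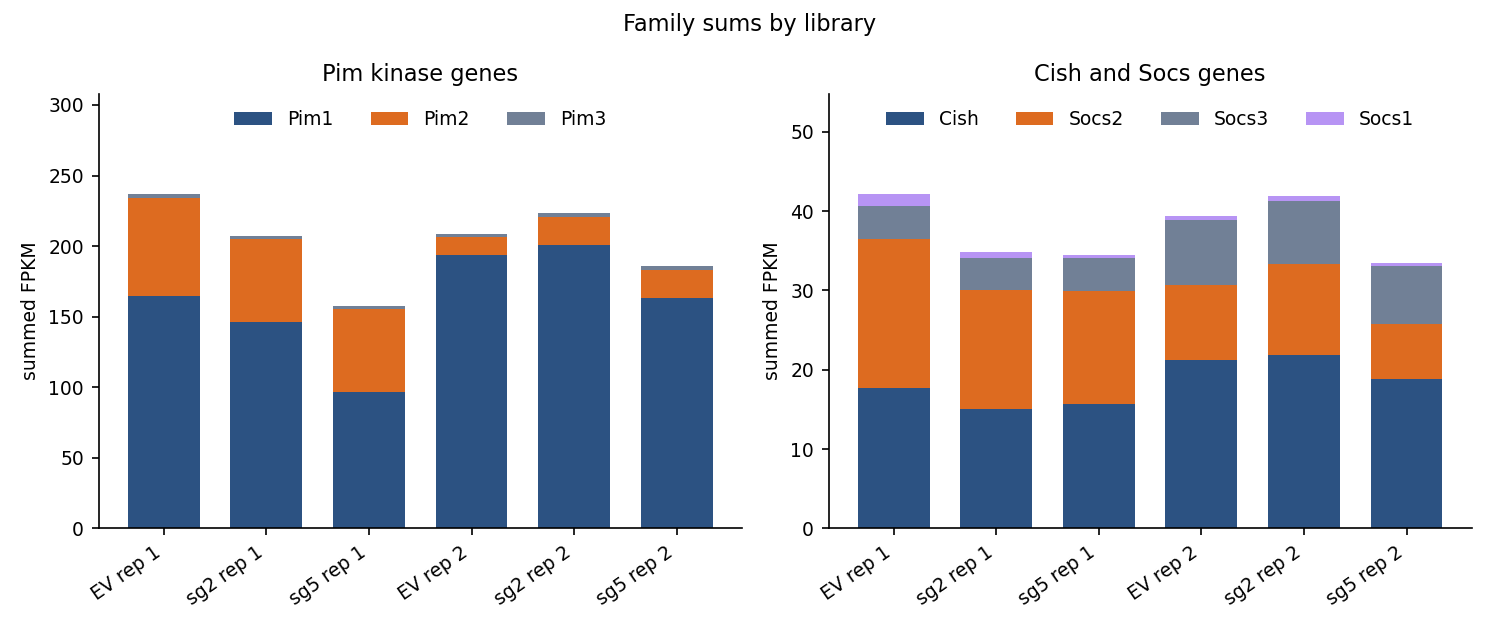
Summed FPKM of the 3 Pim genes and of Cish with the 3 Socs genes in each library, stacked by gene on axes that start at 0, number 1 libraries on the left of each panel and number 2 on the right. The Pim totals overlap between the numbers (158 to 237 FPKM and 186 to 224 FPKM), while the Pim2 part is between 28.4% and 37.1% in number 1 and between 6.17% and 10.4% in number 2.

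The third comparison asks whether the guide difference itself depends on the replicate number, by an interaction term whose residual spread comes only from sg2 against sg5. Limma called none of the 7 genes and no gene at all (0%), with an unadjusted p under 0.05 for 541 genes (4.18%). Pim2 and Osm were among those 541. Pim2 with guides was at 85.0% and 84.5% of EV in number 1 and at 149.8% and 151% of EV in number 2, for sg2 and sg5 in that order. Its log2 difference of guides from EV was -0.24 in number 1 and 0.55 in number 2, an interaction of 0.79 (SE 0.12). The unadjusted limma p of the interaction was 0.00252 and adjusted to 0.518.

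Osm was at 89.3% and 108% of EV in number 1 and at 207% and 185% in number 2. Its log2 differences of -0.02 and 0.81 gave an interaction of 0.84 (SE 0.24), whose unadjusted limma p of 0.0232 adjusted to 1.00. Pim3 was at 77.5% and 76.6% of EV in number 1 and at 141% and 136% in number 2, with an interaction of 0.62 (SE 0.22). Its unadjusted limma p of 0.0505 adjusted to 1.00. For each of these 3 genes a single EV library stands in each number, so the interaction rests on those 2 EV libraries. Pim1 (0.37), Socs2 (0.27), Cish (0.13) and Socs3 (-0.05) had SEs between 0.18 and 0.42 and limma adjusted p values of 1.00.

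The rest of the pathway was taken from 5 lists of other genes: receptors, Janus kinases and STATs; other inhibitors of cytokine signalling; other STAT5 target genes; genes of the ERK and immediate early response; and partners of the SOCS box. With guides, limma called none of the 15, 17, 18, 16 and 6 tested genes of these lists, with or without the replicate block, and without it none had an unadjusted p under 0.05. Their median log2 differences were 0.07, 0.03, 0.01, 0.05 and -0.04, beside -0.00 for all genes. In the receptor list 12 of 15 differences were above 0. Stat5b, one of the STAT5 genes themselves, stood at 37.8 and 37.7 FPKM in EV and ranged from 41.2 to 48.3 FPKM with guides, without overlap (as for 5.1% of genes tested), a log2 difference of 0.22 (SE 0.12). Stat5a had a difference of 0.28 (SE 0.23) and Il3ra, the interleukin 3 receptor alpha chain, of 0.31 (SE 0.22). The largest differences of the list were those of the receptor beta chain genes Csf2rb2 (0.50, SE 0.50) and Csf2rb (0.41, SE 0.42). Csf2rb stood at 139 and 69.5 FPKM in the EV pair, 163 and 97.1 FPKM in the sg2 pair and 197 and 95.1 FPKM in the sg5 pair. For both genes each guide library was above the EV library of its number, while the guide and EV ranges overlapped. With the block, 5 of the 15 receptor genes had an unadjusted limma p under 0.05, beside 5.72% of all genes, among them Stat5a (0.0120), Stat5b (0.0424) and Il3ra (0.0449), and the smallest adjusted p was 0.576.

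Among the other inhibitors, Socs6 (-0.12), Socs4 (0.08) and Ptpn1 (-0.07) had the smallest p values with guides. Among the other STAT5 targets these were Myc, the growth regulator, with -0.59 (SE 0.33, and with the block a limma p of 0.00485 that adjusted to 0.576), Il2ra (-0.31) and the survival gene Mcl1 (0.13). In the ERK list they were Junb (0.56), Dusp1 (0.56) and Spred2 (-0.11), and among the SOCS box partners Tceb1 (-0.30), Cul2 (-0.18) and Rbx1 (-0.049). None of these passed the test.

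By replicate number, limma called 9 of the 18 other STAT5 targets higher and 2 lower in number 2, with a list median of 0.38 beside -0.04 for all genes, of which 20.2% were called higher and 26.9% lower. These shares are the background for the other lists too, and the protein-coding scaling given above moves calls toward higher. Bcl6, a repressor that competes with STAT5 for its sites, measured 1.62 ± 0.56 FPKM in number 1 and 8.68 ± 0.30 FPKM in number 2 (SD, n = 3 each), a log2 difference of 1.90 (SE 0.16, limma adjusted p = 0.00250). Cdkn1a, a brake on the cell cycle, measured 228 ± 11.9 and 480 ± 76.3 FPKM, and the cytokine gene Lif 2.01 ± 0.21 and 6.40 ± 1.84 FPKM. Gadd45g, Cd69, Nfil3, Il4ra, Bcl2 and Ccnd2 were the other 6 called higher, with log2 differences between 0.38 and 1.21. Myc (26.6 ± 7.34 and 16.2 ± 4.45 FPKM) and the survival gene Bcl2l1 (27.2 ± 2.75 and 18.3 ± 2.25 FPKM) were called lower.

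In the ERK list limma called 6 of 16 genes higher in number 2 (median 0.45) and 1 lower. Phlda1 and Fos had the largest log2 differences, both 1.16, followed by Dusp1 (1.04), Spred3 (0.90), Dusp6 (0.69) and Dusp5 (0.36), and Ier3 was lower (-1.07). Dusp1, Dusp5 and Dusp6 encode phosphatases that turn MAP kinases off. All 6 tested genes of the list of SOCS box partners were called lower (median -0.55), as were 26.9% of all genes tested. They were Cul5 (-0.65), Rnf7 (-0.63), Rbx1 (-0.55), Tceb2 (-0.54), Cul2 (-0.53) and Tceb1 (-0.40). The call of Tceb1 was lost with the median-ratio scaling (limma adjusted p = 0.0702) and with the protein-coding scaling (0.194).

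The receptor list had 2 genes called higher and 4 lower in number 2 (median -0.03). Stat4 (0.72) was among the higher. Csf2rb, the beta chain shared by the receptors for interleukin 3, interleukin 5 and GM-CSF, was lower (166 ± 28.7 and 87.2 ± 15.4 FPKM, log2 difference -0.93). Also lower were the closely related beta chain gene Csf2rb2 (-1.13), Stat5a (-0.47) and Stat6 (-0.35). Reads of Csf2rb and Csf2rb2 can be split uncertainly between these genes, and the call of Stat6 was lost with the protein-coding scaling (limma adjusted p = 0.146). Il3ra had a difference of 0.40 that was not called (limma adjusted p = 0.0533) and was called higher with the median-ratio scaling (0.0390) and with the protein-coding scaling (0.0193).

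The other inhibitors had 3 genes called higher and 4 lower (median 0.06). Dok1 (0.56), Socs7 (0.51) and Pias1 (0.23) were higher. Ptpn6, the phosphatase SHP-1 that dephosphorylates the receptor and Janus kinase 2, was lower (285 ± 33.1 and 129 ± 14.4 FPKM, log2 difference -1.14, SE 0.07, limma adjusted p = 0.00192). Dok2 (-0.57), Ptpn2 (-0.52) and Inpp5d (-0.40) were also lower. The call of Dok2 was lost with the protein-coding scaling (limma adjusted p = 0.0668) and that of Inpp5d with both scalings (0.0583 and 0.168). With the protein-coding scaling Socs4 (limma adjusted p = 0.0166) and the STAT5 target Mcl1 (0.0396) were called higher.

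**Figure D4:**
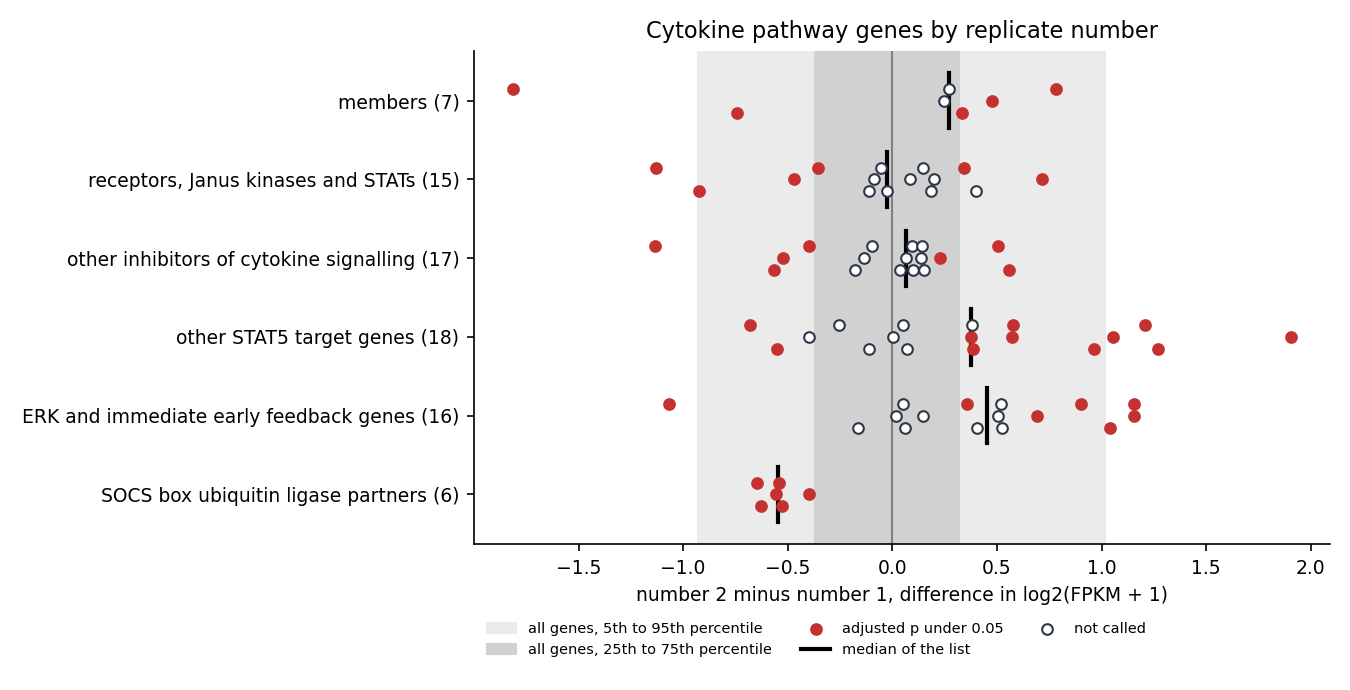
Replicate number 2 minus number 1 in log2(FPKM + 1), 1 point per tested gene, for the feedback genes (top row, "members") and the 5 other pathway lists, with filled points for a limma adjusted p under 0.05, a bar at each list's median and grey bands for the percentiles of all genes tested. The 6 SOCS box partners all lie between -0.65 and -0.40, while the feedback genes are spread from -1.81 (Pim2) to 0.78 (Socs3).

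Some markers of myeloid cells also differed by number. Of the 8 tested markers of a myeloid progenitor, limma called 2 higher and 1 lower in number 2, with a list median of -0.06. Cebpa, a granulocyte and monocyte regulator, measured between 32.2 and 70.2 FPKM in number 1 and between 136 and 216 FPKM in number 2, and Mpo, a primary granule gene, between 41.5 and 151 FPKM and between 12.3 and 14.8 FPKM. They were picked after their values were seen, and Prtn3 and Elane of the same list overlapped between the numbers. The 6 monocyte and macrophage markers, 4 of them with a mean of at least 1 FPKM, summed to between 92.1 and 113 FPKM in number 1 and between 152 and 171 FPKM in number 2, with Cd14 at or below 0.63 FPKM. Limma called 3 of those 4 higher and 1 lower, Fcgr1, which lay between 6.69 and 8.25 FPKM in number 1 and between 0.736 and 1.32 FPKM in number 2. It called 2 of 7 tested mast cell and basophil markers higher, 3 of 6 late neutrophil markers and 1 of 2 eosinophil markers, and 0 lower, beside 20.2% and 26.9% of all genes. The largest difference among the mast cell and basophil markers was 4.35, for Prss34, between 0.269 and 2.29 FPKM in number 1 and between 15.6 and 70.1 FPKM in number 2. The median of that list was 0.31. The part of these markers in the differences of Pim2, Socs3 and the other feedback genes was not tested.

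For each of the 7 tested genes, the 2 protein-coding genes of mean FPKM at least 5 most like it were those with the highest Pearson r of log2(FPKM + 1) over the 6 libraries. These r values are descriptions: the libraries share their split by replicate number, which every r spans. Socs3 was most like Sirt7 (r = 0.999) and Ccdc88c (0.998), and Pim2 most like Mif (0.997) and Sdad1 (0.997). As many as 962 of 9028 genes had an r over 0.95 with Pim2 and 778 with Socs3, so many genes share those patterns. Socs2 was most like Fam58b (0.996) and Dus3l (0.995), and Cish most like Wdfy2 (0.994) and Pigb (0.992).

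Pim1, Pim3 and Osm had fewer companions, with 19, 10 and 9 genes at an r over 0.95. Pim1 was most like Paf1 (0.982) and Slc7a6os (0.979), Pim3 most like Apitd1 (0.984) and Nrbf2 (0.982), and Prrc1 (0.977) was among the 2 genes most like Osm. Among the feedback genes themselves, r was -0.98 between Socs3 and Pim2, 0.92 between Socs3 and Cish, 0.85 between Socs2 and Pim2 and 0.82 between Pim3 and Osm, each over the same 6 libraries.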

How the data were processed

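RNA sequencing gave 6 libraries of mouse 32D cells (EV, sg2 and sg5, 2 each), grouped by their titles. The deposited tables hold FPKM values per gene, made by the authors. Tools listed in the submitters' processing notes are kallisto 0.43.0 and DESeq2, and the builds are GRCm38 and mm10. How FPKM were derived, and from which annotation release, is not given in the sources used here. Gene positions are those of GENCODE M21 (GRCm38), and promoter sequences from RefSeq (GRCm38.p6). The implied depth was read from the steps of the lowest values of 752 single-transcript genes over 4000 nt, assuming fragments of 200 nt; between 92.9% and 98.1% of these values were whole multiples within 0.15 fragments. It covers counting error only. Because FPKM are not counts, no count model was run.

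Values were tested as log2(FPKM + 1), for genes averaging at least 1 FPKM, with limma 3.58.1 (trend, R 4.3.3), two-sided, with Benjamini-Hochberg adjustment over all 12929 genes at a threshold of 0.05. The scripts were tested on simulated data. Figures were drawn with matplotlib 3.10.9 and tables made with pandas 2.3.3, in Python 3.11.15. Guides were fitted as 1 group against EV, single guides in a fit with 3 groups, and replicate number 2 against 1 with the group as a term. The 8 genes and the pathway lists were chosen with earlier results of these data known. Named genes are the 8, in each pathway list the 3 of smallest p for guides and any gene called, and for likeness the 2 genes of highest r, except that some genes under this rule are not reported here; genes of the marker lists and overlapping models are named as checks and were picked after their values were seen. Replicate numbers pair the libraries: the differences of number 2 from number 1 correlated across genes between groups at 0.611 (EV and sg2), 0.591 (EV and sg5) and 0.583 (sg2 and sg5), and 6 of 6 libraries correlated best with one of the same number. Alternatives were the replicate block, other pseudocounts, filters, scalings and gene types, no trend, the other label of sg5 replicate 2, and leaving out each library.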

Additional observations from a re-analysis of the deposited data

Results flagged for a closer look

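In Pim2 both guides were below the same-numbered EV library in number 1 and above it in number 2. The guide difference in number 2 minus that in number 1 was 0.79 on the log2 scale (SE 0.12), with both guides moving the same way in each number. The unadjusted limma p was 0.00252 and adjusted to 0.518 over all genes.

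In Pim3 both guides were likewise below EV in number 1 and above it in number 2. The guide difference in number 2 minus that in number 1 was 0.62 (SE 0.22). The unadjusted limma p was 0.0505 and adjusted to 1.00. Neither passed the adjusted threshold, and each rests on 1 EV library per number.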

How the results depend on the processing

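The replicate block moved the count of genes called for guides against EV from 0 to 5, for sg2 from 1 to 3 and for sg5 from 0 to 2, and changed no call of a feedback gene. For guides against EV the count was 1 with a pseudocount of 5, 6 without a filter, 1 with protein-coding genes only, 4 without a trend and 18 with the block and protein-coding genes only, a setting chosen after seeing the data. For sg2 it was 2 with a pseudocount of 5, 24 with the block and protein-coding genes only, and 0 without a filter, with a mean of at least 5 FPKM, with protein-coding genes only and with sg5 replicate 2 counted as sg2. For sg5 it was 18 without a filter and 33 with the block and protein-coding genes only, and for sg5 against sg2 it was 23 and 3. For the interaction it was 243 without a filter, 2 with protein-coding genes only and 27 without a trend. The cause of these moves was not tested.

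Leaving out 1 library gave between 0 and 1 calls for guides against EV (between 0 and 2 with the block), 0 for sg2 (between 0 and 1 with the block), and between 3036 and 4277, in place of 6089, by replicate number, the lowest without sg2 replicate 1; fewer libraries enter each such fit. The sign of the guide difference turned for Socs2 (-0.67 to 0.26), Socs3 (-0.47 to 0.35), Pim2 (-1.01 to 1.33, and -0.24 to 0.55 with the block) and Pim3 (-0.042 to 0.12, and -0.27 to 0.35 with the block, where it was -0.012 without sg2 replicate 2). It turned for Osm only with the block (-0.023 to 0.81), and for sg2 against EV in Pim1 (-0.29 to 0.17, and -0.24 to 0.13 with the block). For the interaction it turned for Socs2 (-0.054 to 0.59) and Socs3 (-0.11 to 0.013). The interaction could not be fitted without an EV library.

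By replicate number the calls of Pim2 and Socs3 held under the 15 alternatives run, and those of Cish, Socs2 and Pim1 were lost under 7, 5 and 6 of them. The guide differences of Osm (0.39, SE 0.25, or 0.21 with the block) and of Pim1 with sg5 (-0.50, SE 0.33, or 0.14 with the block) did not pass the threshold, and a p that misses it does not show that values were alike.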
